A study of Mus musculus with 4 samples.

Results

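DNA replication and S phase genes are described here in mouse bone marrow-derived dendritic cell cultures, BMDC in the labels. They are 35 genes of the 26026 in the deposited expression table. They were chosen by gene symbol as replication, nucleotide supply and G1/S control genes, with earlier results of these data known. All 35 symbols were found, and all 35 had a mean of at least 1 RPKM (reads scaled to gene length and library total) over the libraries, the minimum for the comparisons below, which 11786 genes met. Polyadenylated RNA was sequenced in 4 libraries, 1 per group. The groups were Nfkb1-/- (C57/B16) cells at day 5, Wild-type (C57/B16) cells at day 5, Nfkb1-/- (C57/B16) cells at day 3 and Wild-type (C57/B16) cells at day 3. Every culture was differentiated with Flt3L, the Flt3 ligand, at 100 ng/mL, and the medium was replaced at day 3. Nfkb1 encodes the NF-kB precursor p105 and its processed form p50, and the study's stated question is how RelA and p50 act together as these cells differentiate. The labels do not give the deleted part of Nfkb1, the number or age of the mice or any sorting of cells. With 1 library per group there is no replicate check and no test. Each difference below compares 2 libraries.

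DNA replication starts when the origin recognition complex, with Cdc6 and Cdt1, loads the MCM helicase on DNA in G1 phase. At the start of S phase, kinases and the proteins Mcm10, Cdc45 and GINS turn the loaded MCM ring into an active helicase, and polymerases, the PCNA clamp and lagging strand enzymes then copy both strands. Most of these genes are transcribed under E2F factors, which cyclin E and its kinase help to release from the retinoblastoma protein, so their transcripts are widely read as a sign of cycling cells. In Flt3 ligand cultures of bone marrow, dividing progenitors give rise to dendritic cells that divide little once mature.

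Library totals were alike, at 15398985 and 16116361 reads in knockout and wild-type cells at day 5 and 16215214 and 15255070 reads at day 3, as recovered from the steps of the RPKM values. Reads in the listed genes were 11008673 and 11520988 in knockout and wild type at day 5. At day 3 they were 11861078 and 10451936, so wild type at day 3 had the fewest, and the RPKM values are scaled to the totals. Nfkb1 itself was lower but present in the knockout, with 64.7 RPKM against 114 RPKM in wild type at day 5 and 56.0 RPKM against 74.8 RPKM at day 3. These values cover the whole gene, so they do not check a deletion of part of it. Transcripts of dendritic cells (11 of 11 markers) and of late neutrophils (12 of 12 markers) were found in every library, and no marker of these lists stood at the level of 1 read or at 0. In bulk RNA of such mixed cultures, fewer cycling cells and less replication RNA per cell cannot be told apart.

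As deposited, the replication genes were highest in knockout cells at day 5 and lowest in wild-type cells at day 3. Together they summed to 1242 RPKM in knockout cells at day 5, 909 RPKM in wild-type cells at day 5, 962 RPKM in knockout cells at day 3 and 655 RPKM in wild-type cells at day 3. That was 0.394%, 0.282%, 0.287% and 0.208% of all RPKM in the same order of libraries. Wild-type cells at day 3 had the lowest value of each of the 35 genes, and knockout cells at day 5 the highest value of 32 of them, the exceptions being Pold1, Tk1 and E2f1. Of all 11786 genes, 28.3% had the same highest and lowest library. This share is for both ends together, and the share with wild type at day 3 lowest alone is larger. For example, a further 8.20% had wild type day 5, knockout day 5, knockout day 3 and wild type day 3 in falling order. The full order knockout day 5, knockout day 3, wild type day 5, wild type day 3 held for 27 of the 35 genes and for 16.9% of all genes.

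**Figure D1:**
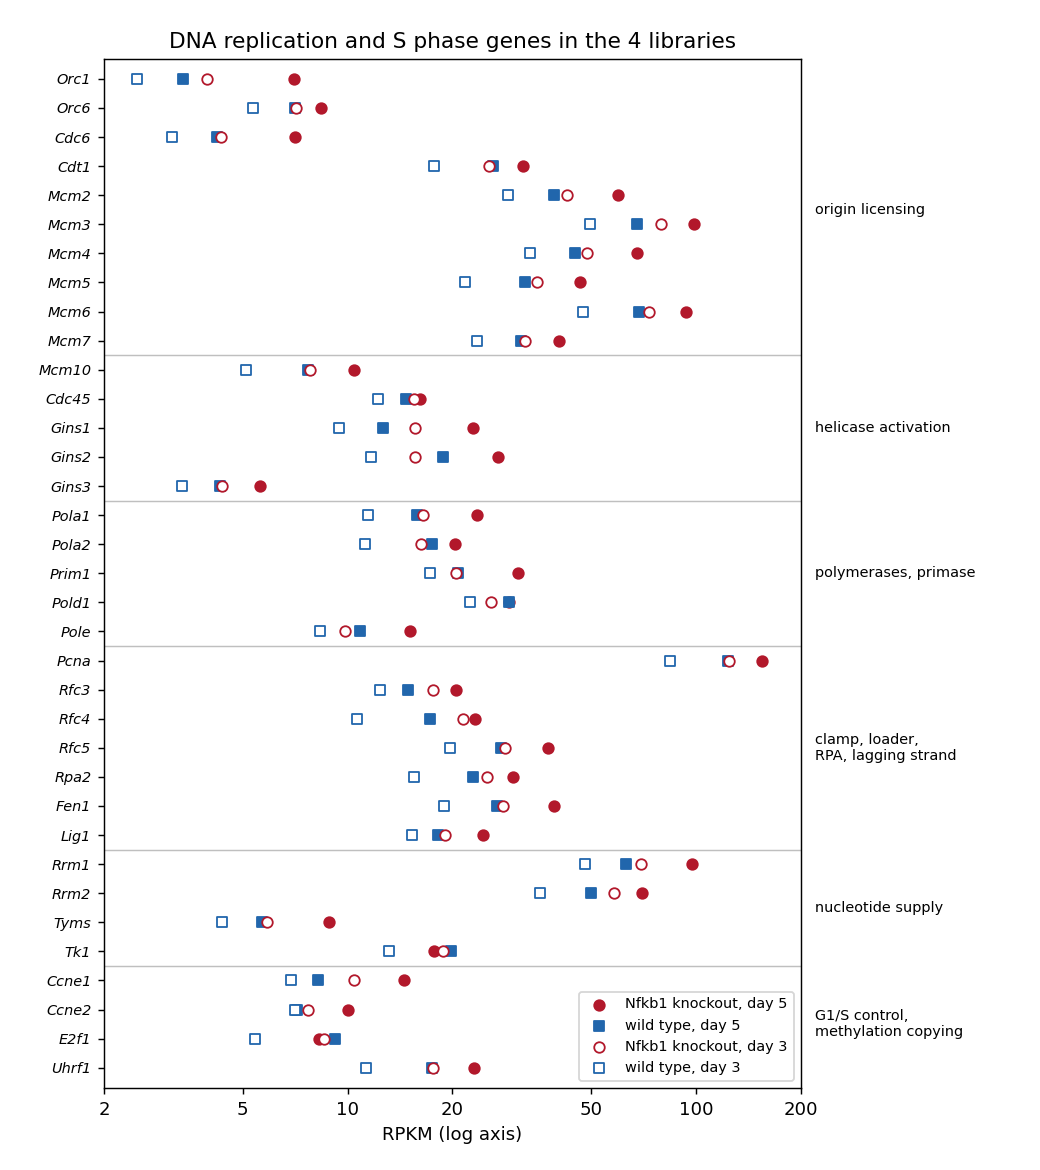
RPKM (log axis) of the 35 genes in each of the 4 libraries, grouped by role; red circles are knockout and blue squares wild type, filled at day 5 and open at day 3. The open squares of wild type at day 3 are leftmost for every gene, and the filled circles are rightmost for all but Pold1 (29.0 RPKM in both day 5 libraries, symbols overlapping), Tk1 and E2f1.

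In reads, the genes held 50547 in knockout cells and 38130 in wild-type cells at day 5, a ratio of 1.39 after scaling to library totals (exact 95% interval 1.37 to 1.41). At day 3 they held 40633 in knockout cells and 26237 in wild-type cells, a ratio of 1.46 (1.43 to 1.48). These intervals and those below cover counting error only, treat each read as an independent molecule, which reads without molecular identifiers are not, and say nothing of the spread between cultures. Differences below are on the log2(RPKM + 1) scale, which understates the change of low genes, and a gene is counted as higher or lower at a difference of at least 0.5, about 1.41-fold.

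In knockout against wild type at day 5, 32 of the 35 genes lay above 0, where 51.2% of all genes did. Their median difference was 0.44 where the median of all genes was 0.01. Of the 35, 14 were higher by at least 0.5 (8.54% of all genes) and 0 were lower by that much (11.5% of all genes). At day 3 all 35 lay above 0 (34 after the median ratio rescaling described below, where Ccne2 fell under 0), against 66.6% of all genes as deposited. Their median was 0.50 where all genes had 0.13, so the genes stood 0.38 above that shift. Of the 35, 18 were higher by at least 0.5 (10.8% of all genes) and 0 lower (4.43% of all genes). No replication gene passed a difference of 1 at day 5 (4.39% of all genes in either direction) or at day 3 (1.86%). The count at day 3 depends on the scaling between libraries: it was 6 after rescaling by the median ratio (5.12% of all genes) and 9 after rescaling to the same sum of RPKM (7.34% of all genes). Among all genes past 0.5 at day 3, 71.0% were higher as deposited, 40.5% after the median ratio rescaling and 55.4% after the same-sum rescaling.

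The 2 days share no library, and 9 genes were higher by at least 0.5 at both: Mcm2, Mcm3, Mcm4, Mcm5, Orc1, Gins1, Fen1, Rrm1 and Ccne1. They are 64.3% of the 14 genes at day 5 and 50% of the 18 at day 3, and 3.88% of all genes passed at both days. This overlap is as deposited and was not recounted after rescaling. With the day 3 count at 6 after the median ratio rescaling, not all 9 can stay past 0.5 at both days. Day 5 alone added Cdc6, Gins2, Pola1, Prim1 and Tyms, while day 3 alone added Mcm6, Mcm10, Pcna, Rfc4, Rfc5, Rpa2, Rrm2, Uhrf1 and E2f1. The counting interval of the knockout to wild type ratio lay above 1 for 30 genes at day 5 and for 34 at day 3. It included 1 for Orc6, Cdc45, Pold1, Tk1 and E2f1 at day 5 and for Ccne2 at day 3.

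**Figure D2:**
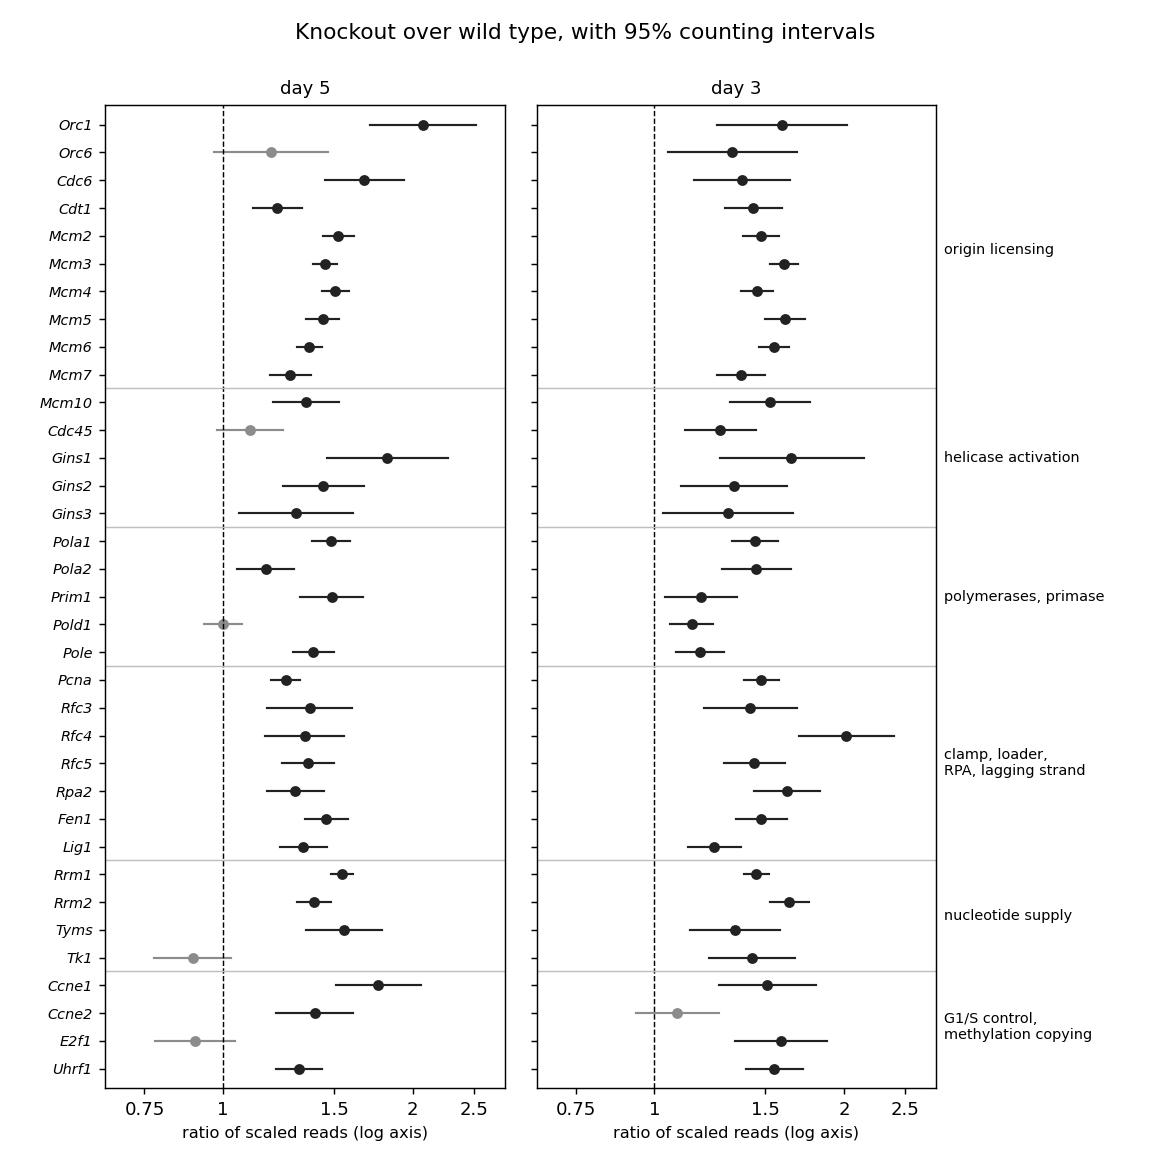
Ratio of knockout to wild type in recovered reads scaled to library totals (log axis) at day 5, left, and day 3, right; bars are exact 95% intervals for counting error, and grey marks intervals that include 1. The ratios span 0.894 (Tk1) to 2.07 (Orc1) at day 5 and 1.09 (Ccne2) to 2.01 (Rfc4) at day 3.

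Origin licensing genes stood above wild type in the knockout: all 10 lay above 0 at both days, with medians of 0.52 at day 5 and 0.52 at day 3, and 6 of the 10 passed 0.5 on each day. Of all genes, 8.54% were higher by at least 0.5 at day 5 and 10.8% at day 3, and 51.2% and 66.6% lay above 0. Counts by role, here and below, are as deposited. They were not recounted after the rescalings, where the day 3 count over the 35 genes was 6 or 9. Mcm2 to Mcm7 encode the 6 subunits of the ring-shaped helicase core. Mcm2 (NM_008564) had 59.8 RPKM in knockout and 39.2 RPKM in wild-type cells at day 5, and 42.7 RPKM in knockout and 29.0 RPKM in wild-type cells at day 3. Mcm3 (NM_008563), the highest of the 6 on average, had 98.4 and 67.8 RPKM in knockout and wild type at day 5 and 79.6 and 49.5 RPKM at day 3. Mcm4 (NM_008565) had 67.8 and 45.0 RPKM in knockout and wild type at day 5 and 48.7 and 33.5 RPKM at day 3. In each of these 3 genes both knockout libraries stood above both wild-type libraries, and Mcm2 and Mcm4 had nearly the same differences, 0.60 and 0.58 at day 5 and 0.55 and 0.53 at day 3. Mcm5 (NM_008566) had 46.6 and 32.4 RPKM in knockout and wild type at day 5 and 34.9 and 21.7 RPKM at day 3. Mcm6 (NM_008567) had 93.7 and 68.4 RPKM in knockout and wild type at day 5 and 73.4 and 47.4 RPKM at day 3. Mcm7 (NM_008568) had 40.4 and 31.5 RPKM in knockout and wild type at day 5 and 32.3 and 23.6 RPKM at day 3. Knockout stood above wild type in these 3 genes too, and their differences were larger at day 3 (0.66, 0.62 and 0.44) than at day 5 (0.51, 0.45 and 0.35). That change, -0.15, -0.17 and -0.10, was near the median of all genes, -0.14, and was not tested.

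The 6 subunits form a ring with 1 copy of each, yet their transcripts spanned 2.44-fold in knockout and 2.17-fold in wild-type cells at day 5 and 2.46-fold in knockout and 2.29-fold in wild-type cells at day 3, in RPKM, a level per length. Mcm3 and Mcm6 were the upper pair in every library. Mcm7 was the lowest in both day 5 libraries and in knockout cells at day 3, and Mcm5 in wild-type cells at day 3.

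Of the genes that load the helicase, Orc1, Orc6 and Cdc6 were below every helicase subunit in each library, while Cdt1 came close to the lower subunits. Orc1 (NM_011015), the ATPase subunit of the origin recognition complex that sets its timing in the cycle, had 7.01 RPKM in knockout and 3.38 RPKM in wild-type cells at day 5, and 3.95 RPKM in knockout and 2.48 RPKM in wild-type cells at day 3. Its day 5 ratio of 2.07 (1.71 to 2.52) was the highest of the 35 genes and rests on 325 reads in knockout and 164 reads in wild-type cells. Orc6 (NR_028268), the smallest subunit of the same complex, had the smallest day 5 difference of the group, with 8.39 RPKM in knockout and 7.05 RPKM in wild-type cells at day 5, and 7.12 and 5.36 RPKM at day 3. At day 5 its ratio of 1.19 had an interval of 0.966 to 1.47, and at day 3 its ratio of 1.33 had an interval of 1.05 to 1.68. The loading ATPase Cdc6 differed by 0.63 at day 5 and 0.36 at day 3. Cdt1, which brings the helicase to the origin and is destroyed in S phase, had 32.0 and 26.2 RPKM in knockout and wild type at day 5 and 25.5 and 17.7 RPKM at day 3. It differed by 0.28 at day 5 and fell just short of 0.5 at day 3.

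Promoters of 4 licensing genes are shown because these genes lead the group in level or in difference and their windows hold letters bound by E2F factors. Each window runs from 250 bases before to 50 after the transcript start in RefSeq, build GRCm38.p6, on the gene's strand, which is a different build from the one the RPKM values were made with. Capitals mark the searched E2F letters TTTGGCGC, TTTCGCGC, TTTGGCGG and TTTCCCGC on either strand, which run into each other in Mcm5 and Mcm6. The windows are chr1:20820263-20820562 (minus strand) for Mcm3, chr8:75109259-75109558 (plus strand) for Mcm5, chr1:128359656-128359955 (minus strand) for Mcm6 and chr4:108579204-108579503 (plus strand) for Orc1.
Mcm3: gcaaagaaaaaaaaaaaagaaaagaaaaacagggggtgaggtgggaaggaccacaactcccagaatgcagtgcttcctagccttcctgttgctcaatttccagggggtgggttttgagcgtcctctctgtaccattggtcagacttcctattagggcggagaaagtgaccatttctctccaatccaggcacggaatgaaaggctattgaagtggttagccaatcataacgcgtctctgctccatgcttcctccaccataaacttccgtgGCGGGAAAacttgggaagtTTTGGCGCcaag
Mcm5: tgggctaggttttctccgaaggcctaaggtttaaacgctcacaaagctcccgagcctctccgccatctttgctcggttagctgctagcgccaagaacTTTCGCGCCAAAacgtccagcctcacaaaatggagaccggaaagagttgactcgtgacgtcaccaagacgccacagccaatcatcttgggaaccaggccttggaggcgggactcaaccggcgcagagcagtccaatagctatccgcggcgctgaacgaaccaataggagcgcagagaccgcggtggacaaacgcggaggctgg
Mcm6: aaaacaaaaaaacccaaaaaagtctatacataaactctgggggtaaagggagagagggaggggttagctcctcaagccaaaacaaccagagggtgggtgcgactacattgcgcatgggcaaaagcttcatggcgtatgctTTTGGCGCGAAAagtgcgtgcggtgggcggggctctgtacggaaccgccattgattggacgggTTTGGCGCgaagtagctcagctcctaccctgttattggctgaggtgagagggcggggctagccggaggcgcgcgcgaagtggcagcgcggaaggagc
Orc1: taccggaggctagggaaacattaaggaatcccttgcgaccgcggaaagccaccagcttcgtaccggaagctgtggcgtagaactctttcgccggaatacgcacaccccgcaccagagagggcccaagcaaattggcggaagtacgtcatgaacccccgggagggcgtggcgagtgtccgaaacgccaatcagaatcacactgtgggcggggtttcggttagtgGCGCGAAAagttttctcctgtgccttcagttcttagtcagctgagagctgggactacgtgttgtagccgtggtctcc
The matches of Mcm3 lie after the start and those of the other 3 genes before it. Of the 35 windows found for 30 of the genes, 14 held at least 1 E2F match, 40%, against 2.37% of 32851 windows of all genes and 4.43% of 11384 windows of the genes tested. The NF-Y letters CCAAT, on either strand, stood in 20 of the 35 windows, 57.1%, against 37.4% of all windows and 37.8% of those of the genes tested. The 14 genes with a match had median knockout minus wild type differences of 0.42 at day 5 and 0.50 at day 3. The 16 genes with a window and no match, Mcm2 among them, had 0.42 and 0.53. A match describes letters, not a bound site, and the start used in these cells was not measured. The RefSeq starts of the 4 windows shown lie within 60 bases of the gene's outer end in the GENCODE annotation of the same build, but some of the 35 lie inside the gene, such as the only window of E2f1, 466 bases in, which held no match. Mcm4, Gins1, Gins2, Pole and Ccne2 had no window.

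The helicase activation genes had a median difference of 0.39 at day 5 and 0.39 at day 3, with all 5 above 0 and 2 of 5 past 0.5 on each day. Gins1 and Gins2, subunits of the GINS complex that joins MCM and Cdc45 in the active helicase, were the 2 past 0.5 at day 5. Gins1 (NM_001163476) had 23.0 and 12.6 RPKM in knockout and wild type at day 5 and 15.6 and 9.47 RPKM at day 3, with ratios of 1.82 (1.46 to 2.28) and 1.65 (1.27 to 2.15). Gins2 (NM_178856) had 27.1 and 18.8 RPKM in knockout and wild type at day 5 and 15.6 and 11.7 RPKM at day 3. Cdc45 (NM_001358206) was nearly level, with 16.2 and 14.7 RPKM in knockout and wild type at day 5 and 15.5 and 12.2 RPKM at day 3, and its ratio at day 5 was 1.10 (0.977 to 1.24). Wild type at day 3 stood apart from the other 3 libraries of Cdc45. Mcm10, needed to set the helicase moving, differed by 0.39 at day 5 and 0.53 at day 3, and Gins3 by 0.32 and 0.31.

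Among polymerase and primase genes the median difference was 0.44 at day 5, with 4 of 5 genes above 0, and 0.23 at day 3, with 5 of 5 above 0. The genes that start each new strand, Prim1 and Pola1, were the 2 past 0.5 at day 5, and 0 of the 5 passed it at day 3. Prim1 (NM_008921), the catalytic primase subunit, had 30.9 and 20.8 RPKM in knockout and wild type at day 5 and 20.5 and 17.3 RPKM at day 3. Pola1, the catalytic subunit of polymerase alpha, differed by 0.54 at day 5 and 0.49 at day 3, while its partner Pola2 differed by 0.21 at day 5 and fell just short of 0.5 at day 3. Pold1 (NM_011131), the catalytic subunit of the lagging strand polymerase delta, had 29.0 RPKM in both genotypes at day 5, and 25.8 RPKM in knockout and 22.5 RPKM in wild-type cells at day 3. Its ratio at day 5 was 0.999 (0.931 to 1.07) on 1528 reads in knockout and 1600 reads in wild-type cells. Pole, which copies the leading strand, differed by 0.44 at day 5 and 0.22 at day 3, with 1655 reads in knockout and 1245 reads in wild-type cells at day 5.

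The clamp, clamp loader, single-strand binding and lagging strand genes were all above 0 on both days, with a median of 0.41 and 1 of 7 past 0.5 at day 5, and a median of 0.54 and 5 of 7 past 0.5 at day 3. Pcna (NM_011045), the sliding clamp, was the most abundant of the 35 genes in every library, with 155 and 123 RPKM in knockout and wild type at day 5 and 125 and 84.3 RPKM at day 3. It also had the smallest day 5 difference of its group, 0.33. Fen1 (NM_007999), the nuclease that trims lagging strand flaps, had 39.1 and 26.8 RPKM in knockout and wild type at day 5 and 27.9 and 18.9 RPKM at day 3. Its differences were alike, 0.53 at day 5 and 0.54 at day 3. Rfc4 (NM_145480), a small subunit of the loader that opens the clamp, had 23.2 and 17.2 RPKM in knockout and wild type at day 5 and 21.5 and 10.7 RPKM at day 3. Its day 3 difference of 0.95 was the largest of the 35 genes on either day with a pseudocount of 1 RPKM (with 0.1 RPKM it was 1.00, against 1.03 for Orc1 at day 5), and wild type at day 3 stood well below the other 3 libraries. The other loader subunits differed less at day 3, Rfc3 by 0.47 and Rfc5 by 0.50, and at day 5 by 0.43 and 0.44. Rpa2, part of the complex that coats single-stranded DNA, differed by 0.37 at day 5 and 0.66 at day 3, and Lig1, the ligase that seals lagging strand fragments, by 0.40 and 0.30.

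Of the 4 nucleotide supply genes, 2 were past 0.5 at day 5 (Rrm1 and Tyms) and 2 at day 3 (Rrm1 and Rrm2). Ribonucleotide reductase and thymidylate synthase make new deoxynucleotides, and Tk1 salvages thymidine. Rrm1 (NM_009103), the large reductase subunit, had 97.3 and 62.9 RPKM in knockout and wild type at day 5 and 69.8 and 48.1 RPKM at day 3. Its ratios of 1.55 (1.49 to 1.61) at day 5 and 1.45 (1.39 to 1.52) at day 3 rest on the most reads of any of the 35 genes, 5988 in knockout and 4054 in wild-type cells at day 5. The small subunit Rrm2 differed by 0.47 at day 5 and 0.70 at day 3, and Tyms by 0.56 and 0.35. Tk1 (NM_001271729) had 17.7 and 19.8 RPKM in knockout and wild type at day 5 and 18.8 and 13.2 RPKM at day 3. Its difference was -0.15 at day 5, where the ratio of 0.894 (0.775 to 1.03) included 1, and 0.48 at day 3, where the ratio was 1.43 (1.22 to 1.67).

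Among the G1/S control genes, only Ccne1 was past 0.5 at day 5, and Ccne1, E2f1 and Uhrf1 were at day 3. Ccne1 (NM_007633), cyclin E1, had 14.5 and 8.25 RPKM in knockout and wild type at day 5 and 10.4 and 6.90 RPKM at day 3, and its ratios were 1.76 (1.51 to 2.06) and 1.51 (1.27 to 1.81). Cyclin E2, Ccne2, differed by 0.43 at day 5 and 0.11 at day 3, where its ratio of 1.09 (0.935 to 1.26) included 1 and the median ratio rescaling turned the sign. E2f1 (NM_007891), the activating E2F factor and itself an E2F target, had 8.30 and 9.20 RPKM in knockout and wild type at day 5 and 8.58 and 5.41 RPKM at day 3. The other libraries were close together and wild type at day 3 was low. The knockout to wild type ratio of 0.902 (0.780 to 1.04) at day 5 included 1, and at day 3 the ratio was 1.59 (1.34 to 1.88). Uhrf1 (NM_001111078), which guides the copying of DNA methylation onto new strands, had 23.0 and 17.4 RPKM in knockout and wild type at day 5 and 17.6 and 11.3 RPKM at day 3. Its differences were 0.38 and 0.59.

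Set against the culture time, most of the 35 genes stood above 0 in day 5 minus day 3 in both genotypes, by amounts mostly under 0.5. In the knockout, 33 of the 35 lay above 0 (56.1% of all genes) with a median of 0.35 (all genes 0.04). Of them, 7 were higher by at least 0.5 (4.96% of all genes) and 0 lower (9.15% of all genes). In wild type all 35 lay above 0 (34 after either rescaling, where Ccne2 fell under 0), against 69.3% of all genes as deposited. The median was 0.42, which was 0.27 above the median of all genes. There 12 were higher by at least 0.5 (13.0% of all genes) and 0 lower (6.70% of all genes). Of the 35, 0 passed 1 in the knockout (3.61% of all genes) or in wild type (3.85%). The summed reads gave a ratio of day 5 to day 3 of 1.31 (1.29 to 1.33) in the knockout and 1.38 (1.35 to 1.40) in wild type. Each of these comparisons shares its libraries with the genotype comparisons above and is not independent of them. The counts also moved with scaling: the wild-type count of 12 became 1 after the median ratio rescaling (6.75% of all genes at that scaling), and the knockout count of 7 became 13 after the same-sum rescaling (8.13% of all genes). Among all genes past 0.5, the share that was higher at day 5 in wild type was 65.9% as deposited and 40.1% with the median ratio scaling; in knockout cells it was 35.2% as deposited and 51.9% with the same-sum scaling.

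**Figure D3:**
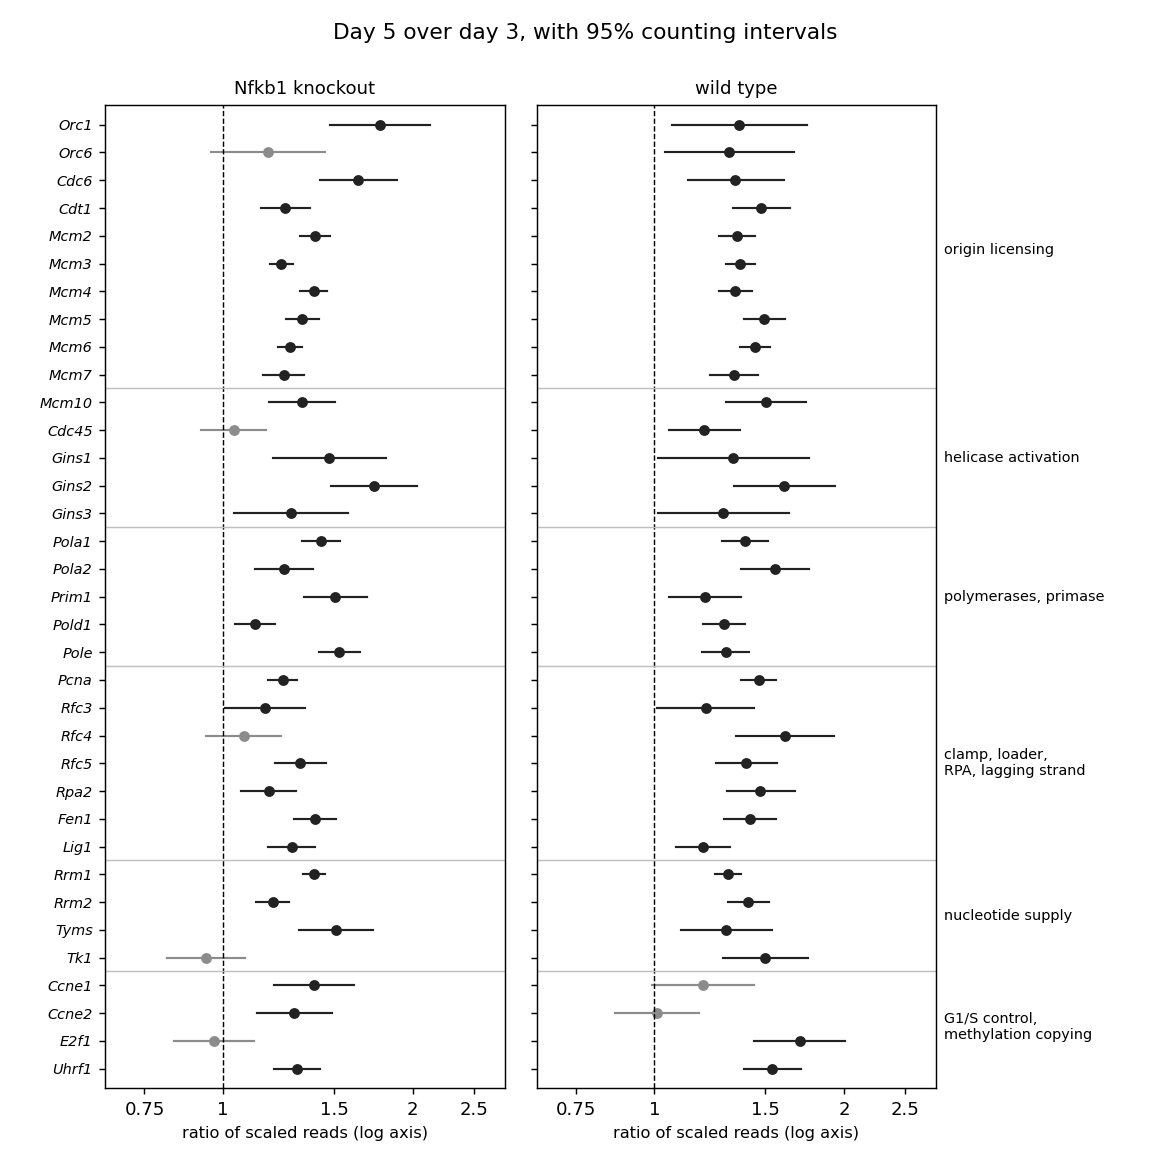
Ratio of day 5 to day 3 in recovered reads scaled to library totals (log axis) in the knockout, left, and wild type, right; bars are exact 95% intervals for counting error, and grey marks intervals that include 1. The ratios span 0.939 (Tk1) to 1.77 (Orc1) in the knockout and 1.01 (Ccne2) to 1.70 (E2f1) in wild type.

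In the knockout, Gins2 (0.76), Orc1 (0.69), Cdc6 (0.60), Prim1 (0.57), Pole (0.57), Gins1 (0.53) and Tyms (0.52) were the 7 genes past 0.5 at day 5 over day 3. All 7 had lower differences in wild type, between 0.25 (Prim1) and 0.38 (Gins1) for all but Gins2 (0.64). They were picked by their knockout values, which favours lower values in the other genotype. Over the 35 genes the median was 0.42 in wild type and 0.35 in the knockout as deposited. After the median ratio rescaling it was 0.26 and 0.33. In wild type the upper end was E2f1 (0.67), Gins2 (0.64) and Rfc4 (0.64), with Pola2 (0.59), Uhrf1 (0.58) and Mcm5 (0.56) next. Gins2 was past 0.5 in both genotypes.

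The genotype difference at day 5 minus that at day 3 had a median of -0.07 over the 35 genes (all genes -0.14) and ran from -0.71 to 0.36. The 3 genes that moved down by at least 0.5 were E2f1 (-0.71), Tk1 (-0.64) and Rfc4 (-0.54), where 14.3% of all genes moved down by that much, and 0 of the 35 moved up by it (4.13% of all genes). In each of them the knockout values at day 5 and day 3 were close together, while wild type at day 5 stood above wild type at day 3: 9.20 against 5.41 RPKM for E2f1, 19.8 against 13.2 RPKM for Tk1 and 17.2 against 10.7 RPKM for Rfc4. At the other end were Orc1 (0.36), Prim1 (0.32) and Ccne2 (0.32). These changes of a difference were not tested.

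Knockout cells at day 3 and wild-type cells at day 5 had similar replication transcript levels. Of the 35 genes 27 lay above 0 in knockout at day 3 minus wild type at day 5, where 48.5% of all genes did. The median difference was 0.05 with a range of -0.25 (Gins2) to 0.31 (Rfc4), and the ratio of summed reads was 1.06 (1.04 to 1.07). The counting interval lay above 1 for 10 genes, below 1 for 3 and included 1 for 22.

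Other replication genes, a list of 45 not among the 35, moved the same way by less. In knockout against wild type at day 5 their median difference was 0.25 (all genes 0.01), with 37 of 45 above 0 (51.2% of all genes). Of the 45, 10 were higher by at least 0.5 (8.54% of all genes) and 0 lower (11.5%). At day 3 the median was 0.39 (all genes 0.13), with 42 of 45 above 0 (66.6% of all genes). There 10 were higher (10.8% of all genes) and 0 lower (4.43%). At day 5 against day 3 the median was 0.24 in the knockout (all genes 0.04). There 4 were higher by at least 0.5 (4.96% of all genes) and 0 lower (9.15%). In wild type the median was 0.34 (all genes 0.16), with 9 higher (13.0% of all genes) and 0 lower (6.70%). Nasp, a histone chaperone, led at day 5 with 40.2 and 23.6 RPKM in knockout and wild type, a difference of 0.75, and 26.6 and 18.3 RPKM at day 3. Dut, which keeps uracil out of DNA, had 30.0 and 18.7 RPKM in knockout and wild type at day 5 and 19.7 and 12.3 RPKM at day 3. Knockout was above wild type on both days in both genes. The lowest 3 were small polymerase subunits and an origin recognition subunit: Pold4 with 30.8 and 42.8 RPKM in knockout and wild type at day 5 (-0.46), Pole4 with 14.0 and 19.1 RPKM (-0.42) and Orc4 with 3.26 and 4.05 RPKM (-0.25). At day 3 they differed by -0.18, 0.39 and 0.06.

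Mitosis genes, a list of 20 for the later part of the cycle, had differences of similar size. At day 5 the median was 0.45 (all genes 0.01), with 20 of 20 above 0 (51.2% of all genes). Of the 20, 9 were higher by at least 0.5 (8.54% of all genes) and 0 lower (11.5%). At day 3 the median was 0.49 (all genes 0.13), with 17 of 20 above 0 (66.6% of all genes). There 10 were higher (10.8% of all genes) and 0 lower (4.43%). Mki67, the antigen used to stain cycling cells, did not follow at day 3: it had 98.7 and 60.5 RPKM in knockout and wild type at day 5 but 56.6 and 65.3 RPKM at day 3. It was chosen after its values were seen. A further 12 genes encode the other E2F factors, their partners and the pocket proteins that hold E2F inactive. Their medians were 0.17 at day 5 and 0.14 at day 3, where all genes had 0.01 and 0.13. At day 5, 1 was higher and 1 lower by at least 0.5, near the shares of all genes (8.54% and 11.5%). At day 3, 0 were past 0.5 (10.8% of all genes were higher and 4.43% lower). Tfdp1, an E2F partner, was the higher one (0.52) and Tfdp2 the lower (-0.58), both named after their values were seen.

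**Figure D4:**
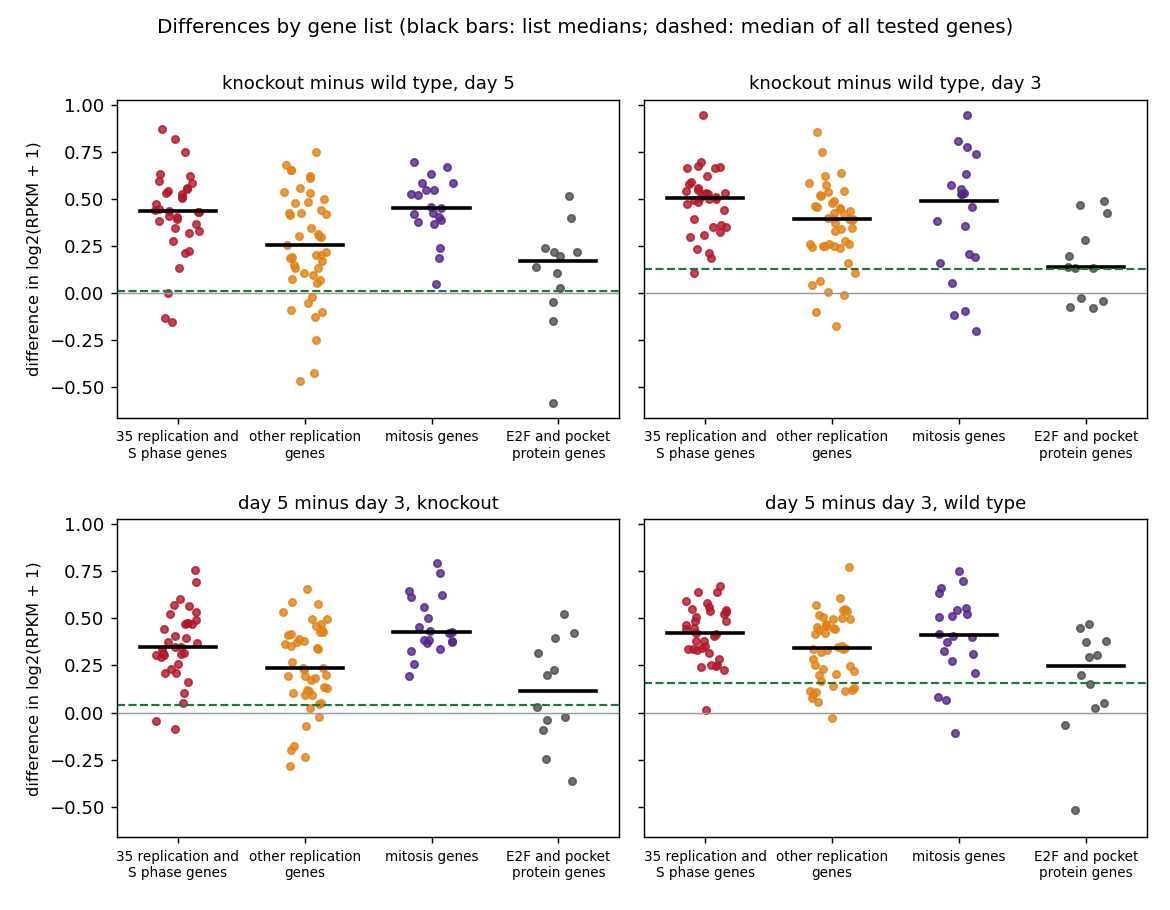
Differences in log2(RPKM + 1) of single genes in 4 lists for knockout minus wild type at day 5 and day 3 (top) and day 5 minus day 3 in knockout and wild type (bottom); points are genes, black bars list medians and the dashed line the median of all tested genes. The 35 genes and the mitosis genes lie mostly above the dashed line in each panel, with medians of 0.44, 0.50, 0.35 and 0.42 for the 35 genes.

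Markers of other cell types differed between the libraries too. The 12 late neutrophil markers summed to 2996 RPKM in knockout and 13890 RPKM in wild-type cells at day 5. At day 3 they summed to 24144 RPKM in knockout and 34299 RPKM in wild-type cells. These sums were 0.952%, 4.31%, 7.21% and 10.9% of all RPKM in the same order of libraries. All 12 were lower in the knockout by at least 0.5 at day 5 (11.5% of all genes), and 7 of 12 at day 3 (4.43%). The 11 dendritic markers summed to 1470 RPKM in knockout and 3484 RPKM in wild-type cells at day 5 and to 1331 and 2230 RPKM at day 3. Lower in the knockout by at least 0.5 were 10 of 11 at day 5 (11.5% of all genes) and 8 of 11 at day 3 (4.43%). Markers of early granulocytes, which still divide, summed to 414 and 355 RPKM in knockout and wild type at day 5 and to 874 and 621 RPKM at day 3. At day 5 the 4 genes were split. Prtn3 (209 and 105 RPKM in knockout and wild type) and Ctsg (80.4 and 54.4 RPKM) lay above 0. Mpo (102 and 144 RPKM) and Elane (22.7 and 51.1 RPKM) lay below 0, and the median difference was 0.03. At day 3 all 4 lay above 0 (66.6% of all genes), with a median difference of 0.51 (all genes 0.13). The part of these cell types in the replication result was not tested. In the pair of knockout at day 3 and wild type at day 5, the late neutrophil sum was 24144 against 13890 RPKM. The early granulocyte sum was 874 against 355 RPKM, the dendritic sum 1331 against 3484 RPKM and the replication sum 962 against 909 RPKM.

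**Figure D5:**
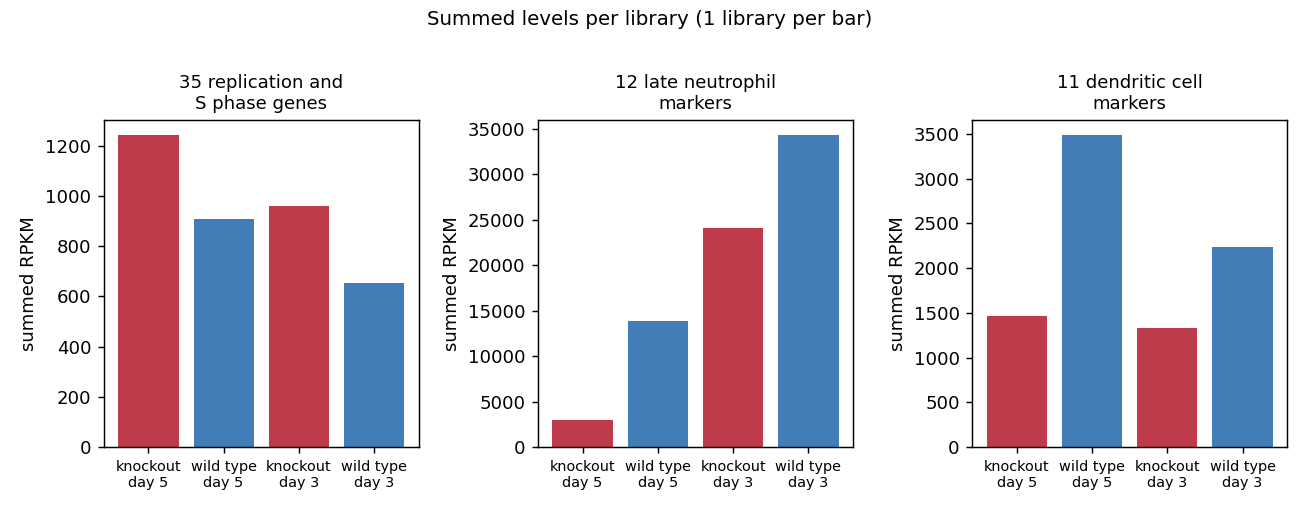
Summed RPKM of the 35 replication and S phase genes, 12 late neutrophil markers and 11 dendritic cell markers in each library, 1 library per bar. The replication sum is 1242, 909, 962 and 655 RPKM from left to right, and the late neutrophil sum 2996, 13890, 24144 and 34299 RPKM.

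Minor cell types had lower sums. The 7 erythroid markers summed to 54.5 and 59.4 RPKM in knockout and wild type at day 5 and to 98.9 and 283 RPKM at day 3, with Alas2 and Car1 at the value of 1 read in knockout cells at day 5 and Car1 also in both day 3 libraries. Most of the day 5 sums was Tfrc, the transferrin receptor, which other dividing cells express too, with 50.3 and 47.4 RPKM in knockout and wild type. The globin genes were lower in the knockout at day 5, with 2.37 and 8.36 RPKM for Hbb-b1 and 1.45 and 2.89 RPKM for Hba-a1 in knockout and wild type. The 7 B cell markers summed to 102 and 176 RPKM in knockout and wild type at day 5 and to 279 and 323 RPKM at day 3. The 3 T cell markers summed to 0.594 and 4.94 RPKM in knockout and wild type at day 5 and to 1.87 and 11.2 RPKM at day 3, with Cd3g at the value of 1 read in knockout cells at day 5.

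Some gene counts carry a limit of their own. Exons of 10 of the 35 genes overlap those of another gene in the table on the opposite strand: Mcm7 with Cops6 and Ap4m1, Orc6 with Vps35, Cdc45 with Ufd1, Gins2 with Gse1, Rfc4 with Eif4a2, Rfc5 with Wsb2, Fen1 with Tmem258, Lig1 with Zswim9, Tk1 with Afmid and Ccne2 with Ints8. Whether strand was used in counting is not given in the sources used here, so reads of these pairs cannot be told apart. Mcm7 also overlaps Mir25 and Mir93 on its own strand, with means of 4.96 and 0.722 RPKM, which strand cannot separate. Tyms has a listed pseudogene, Tyms-ps, which held 2 and 4 reads in knockout and wild type at day 5 and 1 and 1 at day 3. The gene length recovered from the values was within 10% of a reference transcript for 30 of the 35 genes, the others being Mcm7, Mcm10, Gins2, Pcna and Rfc5.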

How the data were processed

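Bulk polyA RNA-seq of 4 libraries was analysed, 1 per genotype and day, from a table of RPKM values that the authors deposited, with 1 column per library named by genotype and day. Reads were processed with HISAT2 and SAMtools on build mm9, per the submitters' processing notes. The sources used here give no version, counting tool, annotation or strand setting. RNA came from trizol lysates and was made into libraries with the Kapa mRNA HyperPrep kit, per the labels' protocols.

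Differences were taken between log2(RPKM + 1) values as deposited, in the 11786 genes whose mean reached 1 RPKM. No value was 0. Whole reads for all 26026 genes and library totals were recovered from the steps of the deposited RPKM values (tolerance 0.0001 reads). In 7985 genes the reads were equal in all libraries, so a gene without reads may be listed as 1 read. Ratios of reads, scaled to library totals, have exact (Clopper-Pearson) 95% intervals. No count model was fitted, since no group has a replicate. Precision is limited by a gene's reads within a library and by having 1 library per group between them.

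The members and lists were chosen with earlier results of these data known. All members are named. Values in every library are given for Mcm2 to Mcm7 and, in each role group, for the gene with the highest mean and those with the highest and lowest day 5 genotype difference, with Rfc4 added after its values were seen. Of the other replication genes the 3 highest and 3 lowest were to be named, and 1 of the highest is not reported here. Alternatives were pseudocounts of 0.1 and 5 RPKM, no filter, a minimum of 5 RPKM, and rescaling by the median ratio or to the same sum of RPKM. A minimum mean of 20 reads was added after the data were seen. Promoter windows came from RefSeq (GRCm38.p6), matched by symbol for 30 of 35 genes, and 31 of 35 windows ended in a transcript of their gene on the same strand. Python 3.11.15, numpy 2.4.6, pandas 2.3.3, scipy 1.17.1 and matplotlib 3.10.9 were used, and the procedures were tested on simulated data.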

Additional observations from a re-analysis of the deposited data

Results flagged for a closer look

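For 3 genes the knockout minus wild type difference in log2(RPKM + 1) had opposite signs on the 2 days, and for Tk1 and E2f1 the day 5 minus day 3 difference had opposite signs in the 2 genotypes. Tk1 differed between knockout and wild type by -0.153 at day 5 and 0.48 at day 3, and between day 5 and day 3 by -0.08543 in the knockout and 0.55 in wild type. E2f1 differed between knockout and wild type by -0.1332 at day 5 and 0.58 at day 3, and between the days by -0.04284 in the knockout and 0.67 in wild type. Pold1 differed between knockout and wild type by -0.000712 at day 5 and 0.19 at day 3. With 1 library per group these differences of differences were not tested. The negative values are all within counting error of 0, and those of Pold1 at day 5 and of E2f1 between the days in the knockout turned positive after a rescaling.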

How the results depend on the processing

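The medians and counts over the 35 genes were recomputed under 7 alternatives, and every median stayed above 0. With a pseudocount of 0.1 RPKM the median was 0.53 for knockout minus wild type at day 3 and 0.37 for day 5 minus day 3 in the knockout. With a pseudocount of 5 RPKM the medians were 0.35 (genotype, day 5), 0.39 (genotype, day 3), 0.30 (days, knockout) and 0.36 (days, wild type), and the counts past 0.5 were 7, 8, 1 and 3 in the same order, where the larger pseudocount shrinks every difference. Rescaling by the median ratio gave medians of 0.41, 0.34, 0.33 and 0.26, with counts of 6 for the genotypes at day 3 and 1 for the days in wild type. Scaling every library to an equal sum gave medians of 0.47, 0.42, 0.44 and 0.39, with counts of 9 for the genotypes at day 3 and 13 for the days in the knockout. The 3 filters on low values kept every count within 1.5 times. Of 968 recomputed differences of single genes, 891 stayed within their counting interval and 77 did not, and 5 changed sign. Of the 140 differences, 50 crossed 0.5 under some alternative. No paired analysis was possible because each group has 1 library. What 1 library can show limits all of these values: neither the spread between cultures nor a batch can be seen, and each group of genotype and day cannot be told apart from its library.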
